A study of Mus musculus with 16 samples.

Results

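The genes described here encode 10 ligands of the transforming growth factor (TGF) superfamily, the bone morphogenetic protein (BMP) genes *Bmp2*, *Bmp4*, *Bmp5*, *Bmp6*, *Bmp7* and *Bmp10*, the TGF-β genes *Tgfb1*, *Tgfb2* and *Tgfb3*, and *Inhba*, which encodes the activin βA chain. They were taken by gene name as the microarray files give it, and 12 of the 55681 probes on the microarray carry 1 of these names, 10 of 34821 gene names in all. *Bmp4* and *Tgfb2* have 2 probes each, and the probe with the higher mean signal stands for the gene.

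RNA came from cardiomyocytes (CMs) of CD1 wild-type mice, sorted by the level of integrin α6 (ITGA6, CD49f), and was measured on one-color Agilent microarrays with 4 independent experiments per group. At embryonic day 15.5 (E15.5), cells carrying the CM surface protein ErbB-2 were separated into CD49flow (EL) and CD49fhigh (EH) cells. At postnatal day 2 (P2), non-myocytes were removed with magnetic beads, and the remaining heart cells were separated into CD49flow (PL) and CD49fhigh (PH) cells without an ErbB-2 gate. Each sample pooled the hearts of 20 to 30 embryos or 15 newborns, so that values describe pools and not single animals, and stage, sorting procedure and slide cannot be told apart between E15.5 and P2. The E15.5 samples carry the numbers 2, 3, 6 and 8 and the P2 samples 2, 3, 4 and 5, and the values of a group are given in that order.

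Ligands of this superfamily are secreted as dimers and bind pairs of type I and type II receptor kinases, which phosphorylate SMAD proteins that then regulate genes in the nucleus. TGF-βs and activins act mainly through one set of SMADs and most BMPs through another, and antagonists, co-receptors and latency proteins set how much ligand reaches its receptors. In the developing heart, BMPs are known for their roles in forming the atrioventricular canal, the valves and the ventricular wall, and TGF-βs for their roles in the endocardial cushions and in fibrosis.

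The labelled cell type was checked against marker genes. All 8 pan-CM markers were well above background on all 16 microarrays, and *Myh6*, the gene of the α-myosin heavy chain, had the highest mean log2 signal of these probes over the 16 microarrays. Its mean normalized signal intensity was 69300 (EL), 247000 (EH), 271000 (PL) and 256000 (PH), so that it was 3.58-fold higher in EH (adjusted p = 1.18e-07), the only pan-CM marker called in a comparison of the fractions. Of 8 atrial markers, 7 were higher in EH than in EL and all 8 were higher in PH than in PL, and those called at both stages were *Gja5*, *Kcnj3*, *Myl7*, *Nppa*, *Nr2f2*, *Sln* and *Tbx5*. Of 6 ventricular markers, 4 were lower in EH and 6 were lower in PH, with *Hey2*, *Irx4*, *Lbh* and *Myh7* called at both stages. Higher, lower and called mean here a limma adjusted p of at most 0.05 over all 55681 probes together with a change of at least 3-fold, unless another rule is named. Signals are on the linear scale after quantile normalization, and fold-changes are differences of mean log2 values, given with their standard error (SE). With 4 microarrays on each side, the smallest p of a two-sided exact permutation test is 0.0286.

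Of the 10 ligand genes, *Bmp10*, *Bmp2* and *Tgfb1* were higher in EH than in EL and *Inhba* was lower. In PH, *Bmp10*, *Bmp2*, *Bmp5* and *Tgfb3* were higher than in PL and *Bmp4* was lower. *Bmp10* and *Bmp2* were thus higher in the CD49fhigh fraction of both stages. The *Bmp2* call in EH was lost, however, with the sample number as a block (limma adjusted p = 0.0611). The called probes were 4 of 12 in EH against EL, where 1.63% of all probes were called (1.17% higher, 0.454% lower), and 5 of 12 in PH against PL, where 2.65% were called (1.73% higher, 0.916% lower). With the adjusted p alone, 8 of 12 probes passed in each of these comparisons, beside 8.1% and 11.6% of all probes. All microarrays of EH lay above all of EL for 6 probes and below for 3, beside 7.02% and 9.08% of all probes, and all of PH lay above PL for 4 and below for 3, beside 6.54% and 6.27%. The median log2 fold-change of the 10 genes was 0.7 in EH and 0.81 in PH (0.95 and 0.19 over 9 genes, without *Bmp6*, which was never well above background on all microarrays of a group), and that of all probes was -0.02 and -0.01. Most of these calls were lost with normexp on the raw signals and an offset of 50, where the background method and the offset changed together. *Bmp10* and *Bmp2* alone were called in EH, *Bmp10* alone in PH and *Bmp4* alone in the comparison of the fold-changes between the stages (the interaction), 0 probes in PL against EL, and *Bmp4* and *Bmp7* in PH against EH. Among the lost calls, all of which kept an adjusted p of at most 0.05, *Tgfb3* in PH (log2 fold-change 1.58) and *Bmp7* in PL against EL (-1.56) and in the interaction (-1.56) lay just under 3-fold, and the others in the comparisons of the fractions were *Bmp2* (1.01), *Bmp4* (-1.25) and *Bmp5* (0.31) in PH and *Tgfb1* (0.52) and *Inhba* (-0.86) in EH.

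**Figure D1:**
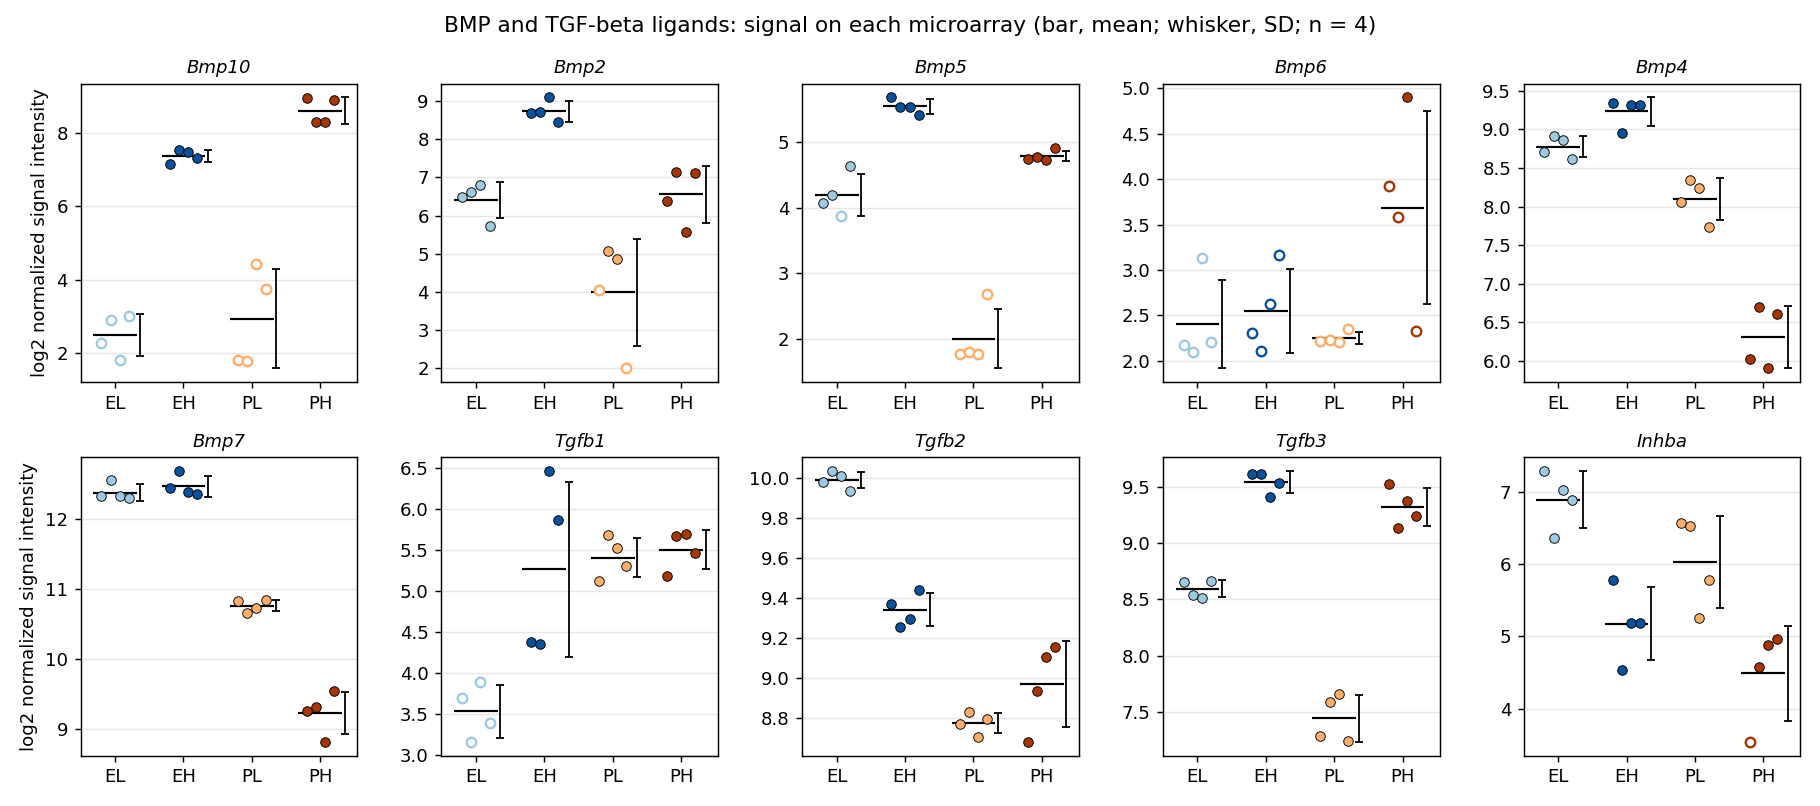
Normalized signal intensity (log2 axis, scaled separately for each gene) of the 10 ligand genes on each of the 16 microarrays, with the mean (bar) and SD (whisker) of the 4 log2 values of each group. Filled points are well above background and open points are not; *Bmp10* is filled in EH and PH alone, and *Bmp7* and *Bmp4* are lowest in PH.

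*Bmp10*, a ligand made mainly in heart muscle and needed for growth of the embryonic ventricular wall, has its probe on chromosome 6 (87384427 to 87384486, mm9 build, as for all probes). Its signal was 4.79, 7.47, 3.48 and 8.03 in EL and 143, 185, 178 and 159 in EH. The P2 samples gave 3.47, 3.43, 21.5 and 13.4 in PL and 500, 316, 313 and 474 in PH. The gene was well above background on every EH and PH microarray and on none of EL and PL, and the fractions did not overlap at either stage. EH was at least 10.2-fold above EL (log2 fold-change 4.88, SE 0.514, limma adjusted p = 3.29e-05) and PH at least 20.1-fold above PL (5.67, adjusted p = 4.03e-06). Here "at least" sets the brighter group against the dimmer group with each of its microarrays raised to its lowest signal that counted as well above background. Every PH microarray lay above every EH microarray, but this log2 fold-change of 1.24 did not pass the test (adjusted p = 0.131).

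In RNA from a sorted population, fewer cells of a type and less RNA per cell cannot be told apart. All PL signals of *Bmp10* were below detection, so that their order carries no weight. The summed signals of the 8 atrial markers in PL samples 2, 3, 4 and 5 were 20100, 48300, 90500 and 26600. In PH the same sum was 908000 to 1020000, of which *Nppa*, the gene of atrial natriuretic peptide, gave 305000 and *Myl4*, an atrial myosin light chain, 289000 on average. The genes whose log2 signals ran most like *Bmp10* over the 16 microarrays, among 22244 detected probes, were *Kcnj3*, an atrial potassium channel, *Nppa* and *Tmed3*, each with r = 0.972. These microarrays share their 4 groups, and the correlations are a description. The part that atrial cells had in the *Bmp10* signal was not tested.

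Promoter sequences of 7 of the 10 genes were found by symbol in the RefSeq table of build GRCm38.p6. The 250 bases before the start site are shown for *Bmp10* and *Bmp5*, which were higher in PH, and for *Bmp4* and *Inhba*, which were lower in PH and in EH, respectively, because these genes stand for the opposite directions among the ligands. Capitals mark AGATAA, the core recognized by GATA factors, and TATAAA, the TATA box, searched on both strands.
Bmp10, chr6:87428744-87428993, plus strand: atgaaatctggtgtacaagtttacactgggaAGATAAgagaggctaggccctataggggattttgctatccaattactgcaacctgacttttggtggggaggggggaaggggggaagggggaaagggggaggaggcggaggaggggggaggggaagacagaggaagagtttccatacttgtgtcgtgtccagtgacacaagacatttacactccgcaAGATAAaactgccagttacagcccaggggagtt
Bmp5, chr9:75775115-75775364, plus strand: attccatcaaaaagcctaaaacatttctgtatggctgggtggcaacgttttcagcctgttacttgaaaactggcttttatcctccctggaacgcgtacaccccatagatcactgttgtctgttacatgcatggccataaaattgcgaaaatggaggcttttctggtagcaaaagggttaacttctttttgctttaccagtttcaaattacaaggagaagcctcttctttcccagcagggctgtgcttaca
Bmp4, chr14:46390670-46390919, minus strand: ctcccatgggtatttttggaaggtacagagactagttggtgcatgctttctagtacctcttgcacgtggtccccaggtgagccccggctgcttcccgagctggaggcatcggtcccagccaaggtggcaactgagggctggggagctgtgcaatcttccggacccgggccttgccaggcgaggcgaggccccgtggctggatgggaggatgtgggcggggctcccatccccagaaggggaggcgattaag
Inhba, chr13:16011601-16011850, plus strand: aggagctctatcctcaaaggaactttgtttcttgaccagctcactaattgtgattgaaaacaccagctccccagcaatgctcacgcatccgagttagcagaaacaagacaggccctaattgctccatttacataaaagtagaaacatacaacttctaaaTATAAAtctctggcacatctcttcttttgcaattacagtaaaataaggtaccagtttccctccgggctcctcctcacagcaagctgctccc
*Bmp10* holds AGATAA at 2 places, which begin 219 and 33 bases before the start site, whereas 9.99% of the 32851 promoter windows in the table hold it at all. *Inhba* holds TATAAA, beginning 91 bases before the start site, as do 12.4% of the windows, and the windows of *Bmp5* and *Bmp4* hold neither. AAGTG, the NKX2-5 core, and GGTGTGA, a T-box core, were searched as well. The windows shown hold 0 matches of either, whereas 40.7% and 3.33% of all windows hold them. The G and C bases made up 52% of the *Bmp10* window, 42.8% of *Bmp5*, 63.2% of *Bmp4* and 43.2% of *Inhba*. A match of letters is a description of the sequence and does not show that a factor binds there.

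*Bmp2*, known for patterning the myocardium of the atrioventricular canal, lies with its probe on chromosome 2 (133388260 to 133388319). Its signal was 89.3, 98.8, 112 and 52.5 in EL and 411, 421, 552 and 351 in EH. After birth it was 16.5, 33.5, 28.9 and 3.96 in PL and 82.9, 142, 47.5 and 140 in PH. The CD49fhigh samples lay above all CD49flow samples of their stage, and PL was well above background on 2 of 4 microarrays. *Bmp2* was higher in EH by 5.05-fold (log2 fold-change 2.34, SE 0.568, adjusted p = 0.0198) and 5.92-fold higher in PH (2.57, adjusted p = 0.00762). From E15.5 to P2 it fell in both fractions, 5.35-fold in PL against EL (log2 fold-change -2.42, adjusted p = 0.007) and 4.55-fold in PH against EH (-2.19, adjusted p = 0.0151). The values with PL rest partly on PL sample 5, below detection at 3.96, as was sample 2. Without sample 5 the log2 fold-change was 1.90 in PH (adjusted p = 0.00611) and -1.75 in PL against EL (0.00615), and with dim signals raised to the lowest signal well above background it was 1.92 and -1.77, all still called. The call in EH was lost with the sample number as a block (adjusted p = 0.0611), without EL sample 8 (0.0656) and without EH sample 6 (0.0593). In fits of only the groups compared, the adjusted p was 0.106 in PH against PL and 0.0567 in PL against EL, and without PH sample 4 it was 0.0531 in PH against EH. The most similar genes were *Dach1* (r = 0.963), *Pknox2* (0.955) and *Capn5* (0.947).

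*Bmp5* encodes a ligand closely related to those of *Bmp6* and *Bmp7* (probe on chromosome 9, 75746444 to 75746503). Its signal was 16.8, 18.4, 14.6 and 24.9 in EL and 51.7, 46.5, 46.6 and 43 in EH. The PL signals were 3.38, 3.48, 3.38 and 6.39, below detection on all 4 microarrays, and those of PH 26.9, 27.5, 26.7 and 30.1. The groups did not overlap at either stage. In EH the difference of 2.56-fold passed the adjusted p (4.95e-04) but not the limit of 3-fold. In PH *Bmp5* was higher by at least 1.43-fold (log2 fold-change 2.80, SE 0.197, adjusted p = 3.54e-07), a low bound because the gene itself was dim. The fit also placed PL below EL (log2 fold-change -2.20, limma adjusted p = 2.47e-06), but PL lay below the detection limit and no fold is given. With dim signals raised to the lowest signal well above background, *Bmp5* was called in neither of these comparisons. In PL against EL the value was then 0.02, which leaves no direction. Its nearest genes were *Hist3h2ba* (r = 0.985), *B3galnt1* (0.982) and *Dusp6* (0.973), the last an inhibitor of ERK kinases.

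*Bmp6* was near background throughout (probe on chromosome 13, 38591479 to 38591538). A single microarray, sample 4 of PH, measured it well above background, at a signal of 29.9. The other PH signals were 15.2, 12 and 5.02, and those of EL, EH and PL ranged from 4.28 to 8.96. The PH and PL groups overlapped, and no fold is given because PL was below detection on all 4 microarrays. The adjusted p was 0.0439, and *Bmp6* was not called.

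*Bmp7* and *Bmp4* had lower signals in PH than in PL. *Bmp7* (probe on chromosome 2, 172695203 to 172695262) encodes a BMP made widely in the myocardium of the embryo. Its signal was 5130, 6060, 5130 and 5030 in EL and 5580, 6600, 5330 and 5230 in EH, groups that overlapped. In PL it was 1810, 1620, 1690 and 1830 and in PH 611, 634, 448 and 742, groups that did not. The log2 fold-change was 0.09 in EH (95% confidence interval -0.20 to 0.37) and -1.53 in PH (2.89-fold, adjusted p = 2.28e-06, just short of 3-fold). The test of the difference between the stages gave -1.62 (SE 0.185, adjusted p = 2.28e-04), which was 3.08-fold and called. *Bmp7* was also 9.45-fold lower in PH than in EH (adjusted p = 5.37e-09) and 3.07-fold lower in PL than in EL (9.83e-07). The interaction and the PL call lay close to 3-fold, and scaling to the 75th percentile (-1.48) or leaving out EH sample 3 (-1.55) or PH sample 4 (-1.48) ended the interaction call, as leaving out EL sample 3 (-1.55) ended the call in PL.

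*Bmp4*, which acts in the outflow tract and in early cardiac lineages, has a detected probe on chromosome 14 (47003391 to 47003450). Its signal was 420, 484, 465 and 394 in EL and 649, 498, 637 and 640 in EH. At P2 it was 268, 325, 304 and 213 in PL and 65.2, 104, 59.9 and 98 in PH. Every EH sample lay above every EL sample, but the log2 fold-change of 0.46 did not pass the test (adjusted p = 0.193). In PH the gene was 3.45-fold lower than in PL (log2 fold-change -1.79, SE 0.184, adjusted p = 1.3e-05). The fold-changes of the stages differed by -2.24 (SE 0.260, adjusted p = 2.63e-04), and PH was 7.59-fold lower than EH (adjusted p = 1.79e-07). The other *Bmp4* probe (47003198 to 47003257) was below detection on all 16 microarrays, with signals up to 6.29, and gave log2 fold-changes of -0.31 and 0.00. The median of both probes was -0.89 in PH against PL, -0.96 for the difference between the stages and -1.41 in PH against EH, all under 3-fold, because the second probe adds values near background. The gene most like *Bmp4* over the 16 microarrays was *Bmp7* (r = 0.955), followed by *Proca1* (0.953) and *Clca2* (0.945).

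In the test of the difference between the stages, 2 of 12 ligand probes were called, both toward lower fold-changes at P2, beside 1.2% of all probes (0.602% in that direction). With the adjusted p alone, 5 probes passed, beside 3.15% of all probes.

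**Figure D2:**
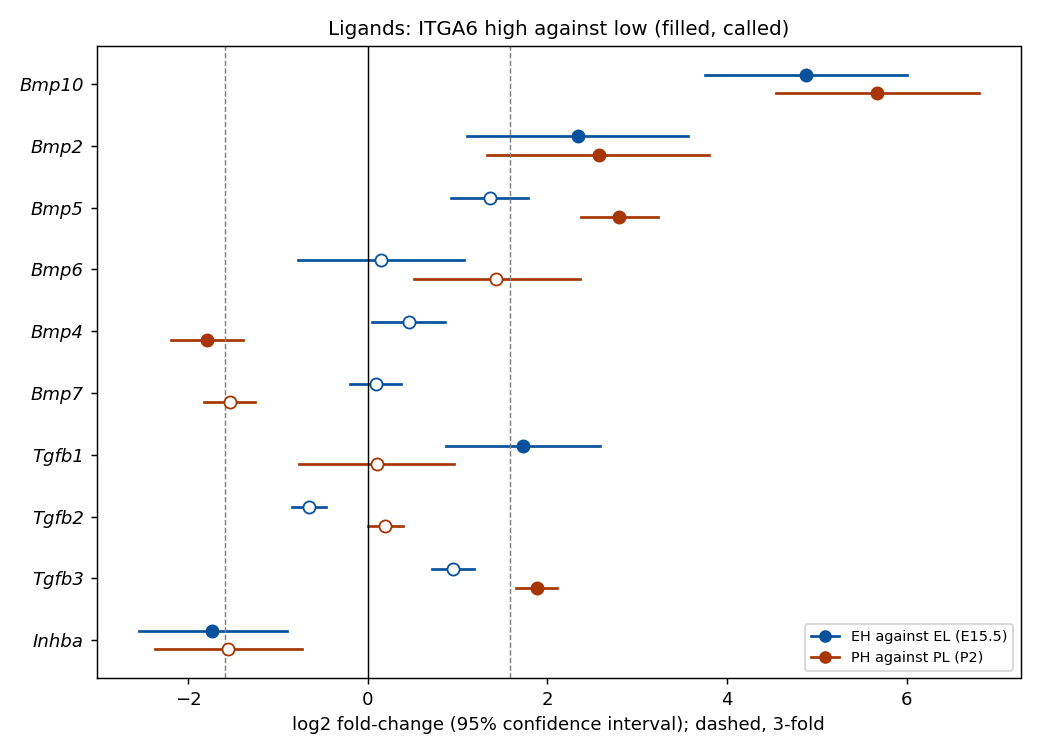
Log2 fold-change of each ligand gene between the CD49fhigh and CD49flow fractions at E15.5 (blue) and P2 (brown), with 95% confidence intervals from limma and dashed lines at 3-fold; filled points were called. *Bmp10* and *Bmp2* are filled and positive at both stages, whereas *Bmp4* changes from 0.46 to -1.79 and *Bmp7* from 0.09 to -1.53.

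*Tgfb3*, known for its role in the fusion of epithelia and in cushion mesenchyme (10 spots per microarray, chromosome 12, 87397804 to 87397863), had signals of 404, 373, 366 and 406 in EL and 786, 786, 682 and 740 in EH. At P2 these were 156, 192, 202 and 151 in PL and 738, 562, 665 and 604 in PH. The fractions did not overlap at either stage. *Tgfb3* was 3.68-fold higher in PH (log2 fold-change 1.88, SE 0.107, adjusted p = 5.03e-08) and 1.93-fold above EL in EH (0.95, adjusted p = 5.91e-05, under the limit of 3-fold). The stages differed by 0.93 (adjusted p = 0.00349), which was likewise under 3-fold. PL lay below EL by 2.23-fold (adjusted p = 3.35e-06), whereas PH and EH overlapped. Its nearest genes were *Tle3* (r = 0.980), *Ptplb* (0.979) and *Ap1s3* (0.976).

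*Tgfb2*, needed for the remodeling of the endocardial cushions, was measured by a brighter probe (chromosome 1, 188449333 to 188449392) and a dimmer one (188447534 to 188447593). The brighter probe gave 1010, 1050, 1030 and 981 in EL and 662, 612, 629 and 696 in EH, with no overlap. It gave 437, 455, 418 and 444 in PL and 410, 490, 550 and 571 in PH, where the groups overlapped. The log2 fold-change was -0.65 in EH (adjusted p = 3.03e-04) at the brighter probe and -0.66 (0.00823) at the dimmer, and 0.19 and 0.07 in PH. The stage difference was 0.84 (adjusted p = 0.00185) and 0.73 (0.0718). No comparison of *Tgfb2* reached 3-fold.

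*Tgfb1*, the ligand most linked to fibrosis, lies with its probe on chromosome 7 (26489877 to 26489936) and was read from 10 spots. Its signal was 12.9, 8.91, 14.8 and 10.5 in EL, below detection on all 4 microarrays, and 20.7, 20.5, 88.3 and 58.5 in EH. The P2 fractions gave 34.9, 51.2, 45.9 and 39.5 in PL and 36.3, 51.1, 51.9 and 44.2 in PH. EH lay above EL without overlap, but EH samples 6 and 8 were far above samples 2 and 3, and the P2 fractions overlapped. *Tgfb1* was at least 2.36-fold higher in EH (log2 fold-change 1.73, SE 0.394, adjusted p = 0.0131) and at least 2.6-fold higher in PL than in EL (1.87, adjusted p = 0.00327). The EH call was lost without EH sample 6 (log2 fold-change 1.33) or 8 (1.53), in a fit of only EL and EH (adjusted p = 0.09), and with dim signals raised to the lowest signal well above background (1.24), which also ended the call in PL (1.38). Within the slide that held 3 EH and 2 EL samples the difference was 1.32, and within the slide with EH sample 6 it was 2.94. In PH the log2 fold-change was 0.10 (95% confidence interval -0.76 to 0.96). The nearest genes were *Cd97* (r = 0.926), *Rnpep* (0.906) and *Ablim3* (0.898).

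EH samples 6 and 8, with the higher *Tgfb1* signals, also had the higher summed signals of endothelial and epicardial markers, and sample 6 also of leukocyte markers. Of 8 endothelial and endocardial markers, 3 were higher in EH (*Cdh5*, *Tie1* and *Emcn*), 0 lower, and none was called in PH. These names, and those of the leukocyte genes below, were chosen after their values were seen. *Cdh5*, which encodes the VE-cadherin of endothelial junctions, had signals of 77.3, 46, 391 and 333 in EH. In EL, PL and PH, 0 microarrays measured *Cdh5*, *Tie1* or *Emcn* well above background. Among the other markers of this list, *Pecam1*, *Tek* and *Npr3* also had EH samples 6 and 8 above samples 2 and 3. *Kdr* (571, 938, 1020 and 803 in EH) and *Nfatc1* (103, 153, 170 and 143) had sample 8 below sample 3. The mean of *Kdr* was 834 in EH and 1040 in EL. The summed signal of the list was 915, 1250, 2180 and 1720 in EH, and 1160, 1120, 1130 and 1290 in EL, with *Kdr* as the largest term of the sum in the mean of each group. It was 391, 495, 1220 and 1690 in PL and 617, 751, 733 and 1270 in PH. Of 8 leukocyte markers, 2 were higher in EH (*Cd68* and *Lyz2*) and 0 in PH. Their sum was 4970, 4270, 12400 and 4900 in EH and 3130, 3530, 4960 and 3140 in EL, with *Itgam* as the largest term in the mean of each group. It was 9820, 4730, 12100 and 6650 in PL and 3440, 3590, 3190 and 3460 in PH, where 5 of the 8 genes were below detection on all microarrays of either group. EH sample 6 was highest in both sums within its group. EH sample 8 exceeded samples 2 and 3 in the endothelial sum, but in the leukocyte sum it exceeded sample 3 and not sample 2. The leukocyte sum was mostly *Itgam* in EH samples 2, 3 and 8 (3870, 3340 and 3230), and the other 7 leukocyte markers were each higher in EH sample 8 than in samples 2 and 3, as *Cd68* was at 519 against 401 and 408. The epicardial sum was 1490, 1000, 2750 and 2060 in EH, and the erythroid sum 17900, 5710, 34600 and 7500. The part of these cells in the *Tgfb1* signal was not tested.

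**Figure D3:**
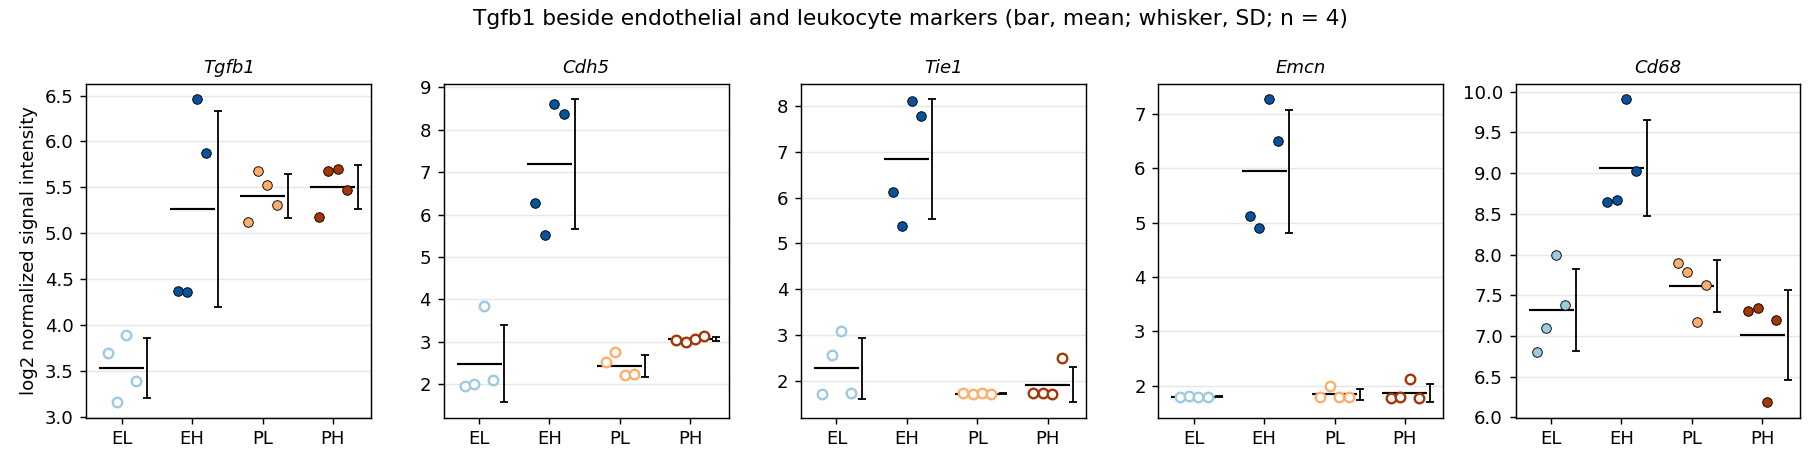
Normalized signal intensity (log2 axis, scaled separately for each gene) of *Tgfb1*, the endothelial markers *Cdh5*, *Tie1* and *Emcn* and the leukocyte marker *Cd68* on the 16 microarrays, with mean (bar) and SD (whisker) of the log2 values; open points are not well above background. *Cdh5*, *Tie1* and *Emcn* are filled in EH alone, with EH samples 6 and 8 above samples 2 and 3, as for *Tgfb1*. The endothelial markers *Kdr* and *Nfatc1*, not shown, have EH sample 8 below sample 3.

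*Inhba*, whose product forms activin A, was the 1 ligand gene lower in EH (chromosome 13, 16118634 to 16118693). Its signal was 157, 82.8, 131 and 119 in EL and 55.1, 23.3, 36.3 and 36.6 in EH. The P2 signals were 95.3, 92.9, 38.2 and 54.9 in PL and 11.6, 23.8, 29.5 and 31.2 in PH. The CD49fhigh samples lay below all CD49flow samples at both stages. In EH *Inhba* was lower by 3.31-fold (log2 fold-change -1.73, SE 0.377, adjusted p = 0.0103) and 2.93-fold below PL in PH (-1.55, adjusted p = 0.0142), short of 3-fold. Leaving out EH sample 3 ended the call in EH (-1.51), and PH passed 3-fold with scaling to the 75th percentile (-1.61) and without PL sample 4 (-1.81) or 5 (-1.64) or PH sample 4 (-1.68) or 5 (-1.71). The fold-changes of the stages differed by 0.18 (95% confidence interval -0.99 to 1.34, not called). The summed signal of the 8 fibroblast markers, 0 of which were called in EH, was 22200, 12800, 18800 and 14600 in EL and 9970, 5410, 10400 and 9470 in EH, without overlap, and that of the epicardial markers was 3010 to 4120 in EL and 1000 to 2750 in EH. EL samples stood in the same order in *Inhba* and in the fibroblast sum, and EH sample 3 was lowest in both. At P2 the fibroblast sums overlapped, at 453 to 1540 in PL and 568 to 812 in PH. PH sample 5 was highest in *Inhba* within its group and lowest in this sum. The part of these cells in the *Inhba* signal was not tested. The nearest genes were *Dhdds* (r = 0.930), *Ccbl2* (0.924) and *Qser1* (0.921).

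Between the stages, 4 of 12 ligand probes were called in PL against EL, *Tgfb1* higher and *Bmp2*, *Bmp5* and *Bmp7* lower, beside 3.75% of all probes (1.6% higher, 2.15% lower). The *Bmp5* call rests on PL signals below detection. Its log2 fold-change was 0.02 with dim signals raised to the lowest signal well above background. With the adjusted p alone, 8 probes passed beside 19.7% of all, and all PL microarrays lay above all of EL for 1 probe and below for 7, beside 10.4% and 10.5%. In PH against EH, 3 were called lower, *Bmp2*, *Bmp4* and *Bmp7*, and 0 higher by limma or the methods' test (analysis of variance, Tukey test and 3-fold) (2 genes were above EH with an unadjusted p under 0.05), beside 3.39% (1.3% higher, 2.1% lower). With the adjusted p alone, 5 probes passed beside 17.5% of all, and PH lay above EH without overlap for 2 (*Bmp10* and the *Bmp4* probe that was below detection throughout) and below for 5, beside 14.9% and 9.54%. In PL against EL, 7 of 8 fibroblast, 7 of 7 epicardial, 3 of 6 erythroid, 3 of 7 smooth muscle and pericyte, 1 of 8 endothelial and 1 of 8 leukocyte markers were lower. In PH against EH these counts were 7, 6, 4, 4, 5 and 6, and 0 markers of these lists were higher in either comparison by limma or the methods' test (1 leukocyte marker in PL had an unadjusted p under 0.05). Of 8 pan-CM markers, 1 was higher in PL and 0 in PH by limma and by the methods' test (7 and 6 at an unadjusted p under 0.05), with list medians of 0.81 and 0.62, and their median summed signal was 247000 in EL, 574000 in PL, 438000 in EH and 525000 in PH. The summed signal of 8 fibroblast markers was 12800 to 22200 in EL against 453 to 1540 in PL, and 5410 to 10400 in EH against 568 to 812 in PH, with *Col1a2* as the largest term in the mean of each group. Of these 8 genes, 3 were below detection on all microarrays of PL and 2 on all of PH. That of 7 epicardial markers was 3010 to 4120 in EL and 52.8 to 193 in PL, and 1000 to 2750 in EH and 150 to 246 in PH, with *Krt19* having the highest mean log2 signal over the 16 microarrays. Between the fractions, 0 fibroblast markers were called in EH and 1 in PH, and 0 epicardial markers in EH and 2 in PH, all higher. The erythroid sum had a median of 4460 in EL against 572 in PL and of 12700 in EH against 399 in PH, whereas the leukocyte sum had a median of 3340 in EL against 8240 in PL (of which *Itgam* gave 2820 and 7990 on average, while the list's median log2 fold-change was -0.38) and of 4940 in EH against 3450 in PH. Of 8 atrial markers, 1 was higher and 2 were lower in PL against EL. Their sums were 20100 to 90500 in PL and 170000 to 195000 in EL. In PH against EH 0 atrial markers were called by limma or the methods' test. Of 6 ventricular markers, 3 were lower in PH against EH. Their sums were 84300 to 120000 in PH and 234000 to 373000 in EH. In PL against EL 0 were called by either test. Of 7 atrioventricular canal and pacemaker markers, 2 were lower in PL and 3 in PH. The part of these cells in the levels of *Bmp2*, *Bmp4*, *Bmp5* and *Bmp7* was not tested.

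The remaining marker lists were also compared between the fractions. Of 7 atrioventricular canal and pacemaker markers, 2 were higher in EH and 1 in PH, with *Cpne5* the brightest and called at both stages (log2 fold-change 3.31 and 3.58). *Cpne5* does not stand for this list, whose medians were 0.22 in EH and 0.01 in PH. By the adjusted p alone, 3 of the 7 genes passed upward and 1 downward in EH, against 1 upward and 1 downward in PH. Below detection on every microarray of a group were 3 of the 7 genes for EL, 2 for EH and 4 for each P2 fraction. Of 7 smooth muscle and pericyte markers, 1 was higher and 1 lower in EH, and 1 was higher and 2 lower in PH. *Cspg4* was lower at both stages (-1.66 and -1.60), and *Acta2*, the brightest, was 6.9-fold lower in PH (adjusted p = 2.94e-06). These 2 genes do not stand for the list, whose medians were 0.54 in EH and 0.07 in PH. With the adjusted p alone, 3 of its markers were higher and 1 lower in EH, and 1 higher and 2 lower in PH. Of 6 erythroid markers, 0 were called in EH and 1 was higher in PH, and at the brightest, *Hba-a1*, the log2 fold-change was 0.95 (adjusted p = 0.55) and -1.01 (0.511). Of 6 neural crest and Schwann cell markers, 0 were called at either stage. Where limma called 0 markers of a list in a comparison of the fractions, the methods' test likewise called 0. At an unadjusted p under 0.05 stood 3 fibroblast, 4 epicardial, 1 erythroid and 1 neural crest marker in EH, and 2 neural crest, 1 endothelial, 1 leukocyte and 3 pan-CM markers in PH.

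Of the 12 receptor genes, 1 was called at each stage, beside 1.63% and 2.65% of all probes. Of 7 type I receptor genes, 1 was higher in EH and the same 1 in PH, with a list median of -0.09 and 0.10 (log2 fold-change). This was *Acvr1c*, which encodes ALK7, a receptor for activins and related ligands. The *Acvr1c* signal was 4.93, 11.5, 7.92 and 10.3 in EL and 293, 285, 343 and 244 in EH. In the P2 fractions it was 3.86, 3.96, 10.1 and 4.11 (PL) and 32, 55.8, 37.2 and 43 (PH). The fractions did not overlap, and both CD49flow groups were below detection. *Acvr1c* was at least 17.8-fold higher in EH (adjusted p = 3.92e-07) and at least 2.11-fold in PH (1.74e-05). Of 5 type II receptor genes 0 were called at either stage by limma or by the methods' test, and 2 had an unadjusted p under 0.05 in each, with list medians of 0.33 and 0.31. At the one with the highest signal, *Acvr2b*, the log2 fold-change was 0.33 (adjusted p = 0.0262) and 0.31 (0.0267). With the adjusted p alone, 1 of the 5 passed at each stage.

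Of 8 co-receptors and decoys, 3 were higher in EH and 1 in PH, with list medians of 0.50 and 0.30. *Cfc1*, a co-receptor for Nodal-related ligands, was at least 1.92-fold higher in EH (log2 fold-change 2.95, adjusted p = 1.11e-04) and at least 2.12-fold in PH (3.53, 1.17e-05), and was below detection in EL and PL. *Eng* encodes endoglin, a co-receptor of endothelial cells, with signals of 29.6, 26.3, 42.1 and 24.7 in EL and 196, 146, 615 and 440 in EH. It was 9.87-fold higher in EH (adjusted p = 8.68e-05), with samples 6 and 8 highest as for *Cdh5*; it was below detection in PL. *Hfe2*, a BMP co-receptor of muscle and liver, was at least 2.23-fold higher in EH (adjusted p = 0.00532).

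Among 17 secreted antagonists, 3 were higher in EH and 1 in PH, with list medians of 0.00 and 0.12. *Fst*, which encodes the activin-binding follistatin, had signals of 26.3, 12.8, 10.7 and 18.2 in EL and 410, 310, 339 and 250 in EH. At P2 it was 3.34, 3.33, 6.69 and 5.57 in PL and 23.2, 37.1, 17.7 and 11.8 in PH. In EH it was higher by 20.1-fold, with EL samples 3 and 6 below detection (log2 fold-change 4.33, adjusted p = 4.42e-06) and at least 1.06-fold in PH (2.19, 9.01e-04). *Fst* and *Inhba* thus lay in opposite directions in EH. *Bmper*, a BMP-binding protein of endothelial cells, was 3.41-fold higher in EH (adjusted p = 1.74e-04), and in PH 2.98-fold (2.67e-04), just short of the limit. *Chrdl1*, a chordin-like antagonist, was called in EH, but it was below detection on all EL microarrays and well above background on 2 of 4 EH microarrays, and no fold is given because EH lay below the detection limit of EL.

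Of 12 genes for latency proteins and processing enzymes, 0 were called in EH by limma (1 by the methods' test, and 8 with an unadjusted p under 0.05), and 2 were higher in PH, with list medians of 0.24 and 0.46. *Thbs1*, the gene of thrombospondin, which can release TGF-β from its latent form, was at least 2.05-fold higher in PH (log2 fold-change 2.84, adjusted p = 8.78e-04), against -1.31 in EH (adjusted p = 0.131). *Fbn1* encodes fibrillin, which binds latent TGF-β and BMPs in the matrix, and was at least 1.18-fold higher in PH (2.73, adjusted p = 2.03e-07). Both were below detection in PL. Of 23 other ligands of the superfamily, 0 were called at either stage by limma or the methods' test, 5 in EH and 4 in PH had an unadjusted p under 0.05, and the list medians were -0.12 and 0.00. In some group, all 4 microarrays measured 6 of these genes well above background. The brightest was *Gdf1*, at -0.62 in EH (adjusted p = 0.0314) and 0.44 in PH (0.119).

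Of 10 genes for SMADs and SMURFs 0 were called at either stage by limma or the methods' test, and 0 in EH and 5 in PH had an unadjusted p under 0.05. The list medians were 0.04 and 0.49. The brightest, *Smad5*, a carrier of BMP signals, had log2 fold-changes of 0.07 (95% confidence interval -0.09 to 0.23) and 0.10. Of 8 BMP target genes, 0 were called in EH by limma or the methods' test (3 with an unadjusted p under 0.05) and 1 in PH, with list medians of 0.80 and -0.06. *Tbx2*, a T-box repressor of the atrioventricular canal, had signals of 4.26, 8.58, 4.93 and 6.82 in PL and 88.3, 146, 71.5 and 149 in PH, without overlap. It was at least 5.57-fold higher in PH (log2 fold-change 4.19, adjusted p = 1.02e-07), with 1.31 in EH (adjusted p = 0.00493, under 3-fold). Of 6 TGF-β target genes, *Tgfbi*, an adhesion protein of the matrix, was 3.51-fold higher in EH (adjusted p = 3.02e-04), and the list medians were -0.11 and 0.57. *Postn*, the matrix protein periostin, was at least 2.84-fold lower in PH (adjusted p = 0.00692), where it was below detection on all 4 microarrays, and the groups overlapped at PL sample 5.

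**Figure D4:**
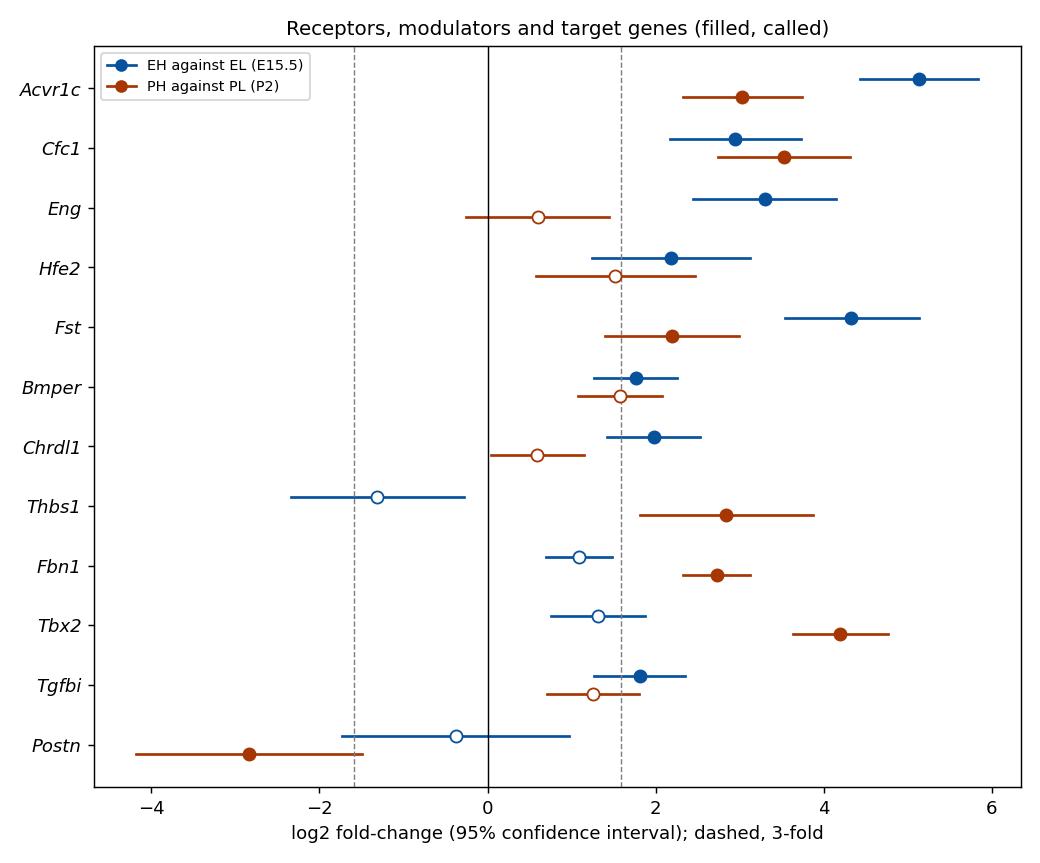
Log2 fold-change of the receptor, co-receptor, antagonist, matrix and target genes called in at least 1 stage, between the CD49fhigh and CD49flow fractions at E15.5 (blue) and P2 (brown), with 95% confidence intervals from limma and dashed lines at 3-fold; filled points were called. *Acvr1c*, *Cfc1* and *Fst* are filled at both stages, and *Postn* is the only one of the 12 genes filled below 0.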

How the data were processed

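The authors deposited the scanner output of each of the 16 microarrays, made with Feature Extraction 10.7.3.1, and their own quantile-normalized log2 values. The deposited signal intensities had been background-subtracted per spot by this software, per the file headers, and stand beside the raw intensities. RNA was amplified from 10 ng and labeled with Cy3. In the deposited log2 values the same microarrays were normalized by the authors and served as an alternative.

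Per array, 59305 spots for 55681 probes were read. After removal of outlier spots, replicate spots were averaged, and the processed signals were quantile normalized, as the study's methods state, and put on the log2 scale. Group means were fitted over all 16 microarrays with limma 3.58.1 (R 4.3.3), with Benjamini-Hochberg adjustment over all probes, which measures the spread between 4 experiments per group. The number of microarrays limits the precision. Between 35.7% and 46.5% of probes were well above background per microarray. Saturated spots numbered 0. The procedure was tested on simulated data. Figures were made with matplotlib 3.10.9 (Python 3.11.15).

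The ligands, the lists of pathway and marker genes and the tests were chosen with earlier results of these data known. Named are every ligand probe, up to 4 called genes of each pathway list or else its brightest, the brightest marker of a list (by mean log2 signal over all microarrays), markers called at both stages, and the 3 genes nearest to a ligand called in EH against EL or PH against PL. The single values of 1 marker are not reported here. The main fit was unpaired, and the sample number entered only as a block in an alternative fit, at both stages. Deviations of EL and EH samples with the same number correlated at 0.255, 0.189, 0.450 and 0.379, all above 0.1. Those of PL and PH gave 0.375, 0.176, -0.0308 and 0.542. EL and EH lay on 2 slides and all P2 samples on another.

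Alternatives were scaling to the 75th percentile, normexp (offset 50), the authors' values, detected probes only, a floor for dim signals, slide or sample number as a block, only the compared groups, the methods' test (analysis of variance, Tukey test and 3-fold), no limit on the fold, the median of a gene's probes, and each microarray left out. Probe positions are those of mm9, and promoters those of GRCm38.p6 from RefSeq.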

Additional observations from a re-analysis of the deposited data

Results flagged for a closer look

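Of 40 sets of 4 microarrays (10 genes in 4 groups), 5 held a sample far from the other 3, where chance flags about 1 in 20. *Bmp4* was lowest in EH sample 3, at 498. *Bmp7* was highest in EL sample 3, at 6060. The others were signals below detection, *Bmp5* in PL sample 5 at 6.39, and *Bmp6* in EL sample 6 at 8.74 and in PL sample 5 at 5.10.

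The fold-change between the fractions differed between the stages, by limma's interaction and its adjusted p, for 5 genes. It was more negative at P2 for *Bmp4* (-2.24) and *Bmp7* (-1.62). It was more positive at P2 for *Bmp5* (1.44), *Tgfb3* (0.93) and *Tgfb2* (0.84), none of which reached 3-fold. For *Bmp5*, below detection on all PL microarrays, the direction turned with a floor for dim signals (-0.77) and with normexp (-0.12).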

How the results depend on the processing

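Called ligand probes numbered 4 in EH against EL, 5 in PH against PL, 2 in the interaction, 4 in PL against EL and 3 in PH against EH. With normexp these counts were 2, 1, 1, 0 and 2, and over all probes it left 207, 418, 233, 460 and 426 calls in place of 907, 1476, 670, 2089 and 1890. With the floor for dim signals, 2 probes were called in PL against EL, and over all probes the calls were 601, 874, 1148 and 1138 in the comparisons other than the interaction. With no limit on the fold the counts were 8, 8, 5, 8 and 5. Scaling to the 75th percentile left 1 probe in the interaction. The median of all probes was then -0.18 in EH, -0.14 in PH and 0.19 in both stage comparisons. In the main fit these medians were -0.02 in EH, -0.01 in PH, 0.01 in PL against EL and 0.03 in PH against EH. With 1 microarray left out in turn, the counts ranged from 2 to 4, 5 to 8, 1 to 3, 3 to 4 and 2 to 4. The lowest in EH was without EH sample 6, where *Bmp2* and *Tgfb1* were lost, and the highest in PH was without PH sample 5, where *Bmp6*, *Bmp7* and *Inhba* were added. Without EH sample 3 or PH sample 4 the interaction kept 1 probe, *Bmp4*.

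Some alternatives could hardly change a value. Leaving out a microarray of a group not compared kept the fold-change, and the authors' values were quantile normalized like those of the main fit. The counts that follow include such values and are no measure of robustness. Of 1215 values for single genes under an alternative, 1158 kept their direction and side of the limits, 32 fell short of the limits, 9 passed them and 16 changed sign. Of the last, only *Bmp5* in PL against EL had been called (0.02 with the floor). The others were *Bmp2* in the interaction (-0.70 with normexp, -0.41 with the floor, -0.44 without PL sample 5), *Bmp5* in the interaction (-0.12 with normexp, -0.77 with the floor), *Bmp6* in EH (-0.47 with the floor, -0.06 without EH sample 8) and in PL against EL (0.26 with the floor, 0.09 without EL sample 6), *Bmp7* in EH (-0.09 with scaling to the 75th percentile), *Bmp10* in PL against EL (-0.05 without PL sample 4), *Tgfb1* in PH against EH (-0.06 without EH sample 2 or 3) and *Inhba* in the interaction (-0.03 without EH sample 3, -0.08 without PL sample 4). With 1 microarray left out in turn, these values ranged from -0.44 to 0.59 for *Bmp2* in the interaction, from -0.06 to 0.39 for *Bmp6* in EH and -0.25 to 0.09 in PL, from -0.05 to 0.83 for *Bmp10* in PL, from -0.06 to 0.64 for *Tgfb1* in PH against EH and from -0.08 to 0.49 for *Inhba* in the interaction. Apart from the floor, which replaces signals below detection, the cause was not tested. With the replicate number as a block, 3 probes were called in EH, where *Bmp2* lost its call (log2 fold-change 2.34, adjusted p = 0.0611), and 5, 2, 4 and 3 in the other comparisons. The block changed no other call of a ligand. Values of genes below detection rest on signals near background, and 4 microarrays per group limit what can be resolved.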
